A study of Mus musculus with 8 samples.

Results

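The Myc, Max and Mxd network is a family of transcription factors of the basic helix-loop-helix leucine zipper class. Its 8 members here were chosen by gene symbol as Myc, Mycn, Max, Mxd1, Mxd3, Mxd4, Mxi1 and Mnt. All 8 had a probe, among 15095 genes with a probe in all, and each was represented by 1 probe. The members were measured in the mouse T cell line CTL-EN on 8 spotted oligonucleotide arrays with 2 dyes each. The wild-type cells expressed the human beta common chain of the GM-CSF receptor (beta-c), and the Ser585Gly cells expressed the same chain with a serine changed to glycine. Both populations were cultured for 12 h without factor in RPMI medium with 0.5% CS, and this state is called 0 h. At 12 h, both had then been given human GM-CSF, a cytokine of blood cell growth and survival, at 50 ng/mL for 12 h. No array held cells kept without GM-CSF for those last 12 h, so what the cytokine did and what time did cannot be told apart. The labels name no separate cultures or clones, and the RNA was also used in a companion series. The p-values below therefore measure only the spread between hybridisations, which may be technical. In such bulk RNA, fewer cells with a transcript and less transcript per cell cannot be told apart.

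Myc and its relative Mycn bind DNA at the E-box CACGTG as a pair with Max, and they activate genes for growth, ribosome assembly and metabolism. The Mxd proteins (including Mxi1) and Mnt also pair with Max at such sites, but recruit Sin3 co-repressors, so that they act as antagonists of Myc. In lymphocytes, Myc is known as an early target of growth and cytokine signals, whereas several Mxd genes are known to be expressed in resting or differentiating cells.

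The E-box through which the network acts also occurs near the start sites of some members, and these sequences are shown because the members with them moved in different directions. In RefSeq (GRCm38.p6), 7 of the 8 members had a promoter window, which runs from 250 bases before the start to 50 after it, and Myc was not among them. CACGTG, which reads the same on both strands, lay in the windows of Max, Mxd4 and Mnt. Of all genes with a window, 8.11% had it. The E2F-type motif TTTCGCGC, on either strand, lay in the window of Mycn and in 0.378% of all genes. These motifs are in capitals below, on the strand of each gene, and are matches of letters and not measured binding sites. The windows are chr12:12941787-12942086 (minus strand) for Mycn, chr12:76962199-76962498 (minus) for Max, chr5:34187661-34187960 (minus) for Mxd4 and chr11:74830674-74830973 (plus) for Mnt. The first motif base lies at position −179 from the start in Mycn, −3 in Max, −219 in Mxd4 and −123 in Mnt.
Mycn: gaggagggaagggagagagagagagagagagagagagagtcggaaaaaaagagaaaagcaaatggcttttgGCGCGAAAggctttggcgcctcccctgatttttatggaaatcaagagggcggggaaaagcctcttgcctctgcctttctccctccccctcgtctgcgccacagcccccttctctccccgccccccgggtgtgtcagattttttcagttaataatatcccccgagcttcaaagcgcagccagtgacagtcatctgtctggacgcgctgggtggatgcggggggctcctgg
Max: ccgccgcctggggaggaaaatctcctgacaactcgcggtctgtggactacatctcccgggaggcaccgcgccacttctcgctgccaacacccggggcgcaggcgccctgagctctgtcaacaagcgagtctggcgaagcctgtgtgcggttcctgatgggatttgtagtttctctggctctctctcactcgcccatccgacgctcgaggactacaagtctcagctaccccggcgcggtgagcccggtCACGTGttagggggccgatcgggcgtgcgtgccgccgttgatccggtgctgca
Mxd4: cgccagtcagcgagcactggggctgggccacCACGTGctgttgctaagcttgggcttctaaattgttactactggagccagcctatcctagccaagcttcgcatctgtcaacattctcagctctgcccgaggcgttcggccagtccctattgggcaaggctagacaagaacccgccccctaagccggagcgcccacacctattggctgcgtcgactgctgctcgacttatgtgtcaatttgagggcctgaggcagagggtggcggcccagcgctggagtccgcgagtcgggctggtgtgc
Mnt: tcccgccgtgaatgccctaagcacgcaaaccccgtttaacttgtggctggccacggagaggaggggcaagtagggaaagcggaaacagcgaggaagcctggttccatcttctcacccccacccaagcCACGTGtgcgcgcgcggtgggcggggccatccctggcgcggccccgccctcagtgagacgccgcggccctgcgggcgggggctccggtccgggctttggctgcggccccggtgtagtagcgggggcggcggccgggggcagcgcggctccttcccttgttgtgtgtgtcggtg

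The windows of Mxd1 and Mxd3 and the 3 windows of Mxi1 held neither CACGTG nor TTTCGCGC. One window of Mxi1 held the FOX-type motif TGTTTAC, as did 4.06% of all genes, and no member's window held TTCNNNGAA, the core spacing of STAT sites, which 9.60% of all genes had. All motifs were searched on both strands and none of the matches overlapped.

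Each comparison was hybridised on 2 arrays with the dyes exchanged. The square of 4 comparisons (12 h against 0 h in each population, and Ser585Gly against wild type at each time) was fitted together with limma. Values are log2 ratios ± SE from this fit over 8 arrays, and a difference passed the test at an adjusted p under 0.05 (Benjamini-Hochberg over 21776 probes). Over all probes, the correlation between an array and its dye swap, with signs aligned, was 0.515 and 0.509 for the time comparisons. The same values were 0.124 and 0.219 for the mutation at 0 h and 12 h. Every member was brighter than the 95th percentile of empty wells in 16 of 16 channels, as were 15891 of all 21776 probes. Mean spot brightness of the members ranked from the 48.2th percentile (Mxd1) to the 97.0th (Myc). Of the markers with a probe, 12 of 13 for T cells were above that limit in all channels, as were 4 of 5 for B cells, 3 of 6 for myeloid cells, 1 of 3 for erythroid cells, 4 of 5 for mast cells and 4 of 6 for fibroblasts. That limit alone therefore does not set T cells apart. The T cell markers Cd3g and Cd3e were at the 99.2th and 98.2th percentile of brightness and Cd4 at the 1.21th, but levels of different probes are not comparable. Probe names rest on a print order recovered from the spots. Under it, the log2 ratios of 681 pairs of probes of the same gene correlated at 0.313 to 0.535 by comparison, against −0.04 to 0.12 over 558 pairs under the deposited order. On the plate of Mxd3 and Mxi1, the recovered order gave 0.517 to 0.686 (31 pairs) and the deposited order −0.01 to 0.36 (35 pairs). On that of Myc and Mycn, the values were 0.05 to 0.51 (32 pairs) and −0.04 to 0.19 (27 pairs), and the deposited order was higher for time in wild type, at 0.19 against 0.05. On that of Max, Mxd1, Mxd4 and Mnt, they were −0.09 to 0.64 (21 pairs) and −0.03 to 0.38 (27 pairs). There the deposited order was higher for the mutation at 0 h (0.25 against −0.09) and at 12 h (0.38 against 0.12). The recovered order was thus higher in 9 of 12 combinations of plate and comparison, and the deposited order in 3.

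Over the 12 h in wild-type cells, 1 member rose and 4 fell. Mycn, which encodes N-Myc, rose 4.96-fold, and Mxd4, one of the antagonists, fell 6.06-fold. Mxd1, Mxi1 and Mnt fell less, and Myc, Max and Mxd3 did not pass the test. The 5 of 8 members that passed compare with 9.46% of all probes, of which 5.43% were higher and 4.03% lower at 12 h. In Ser585Gly cells, 3 members rose (Mycn, Myc and Max) and the same 4 antagonists fell. These 7 of 8 compare with 10.5% of all probes, of which 5.74% were higher and 4.72% lower. Of the 13 T cell markers, Cd3e (−0.84 and −0.90) and Cd3g (−0.71 and −0.72) also fell and Lat rose (0.49 and 0.49) in wild type and Ser585Gly. Of the 3 erythroid markers Hba-a1 fell (−0.45 and −0.49), and of the 6 myeloid markers Ctsg rose in wild type (0.70). Their part in the changes of the network was not tested.

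**Figure D1:**
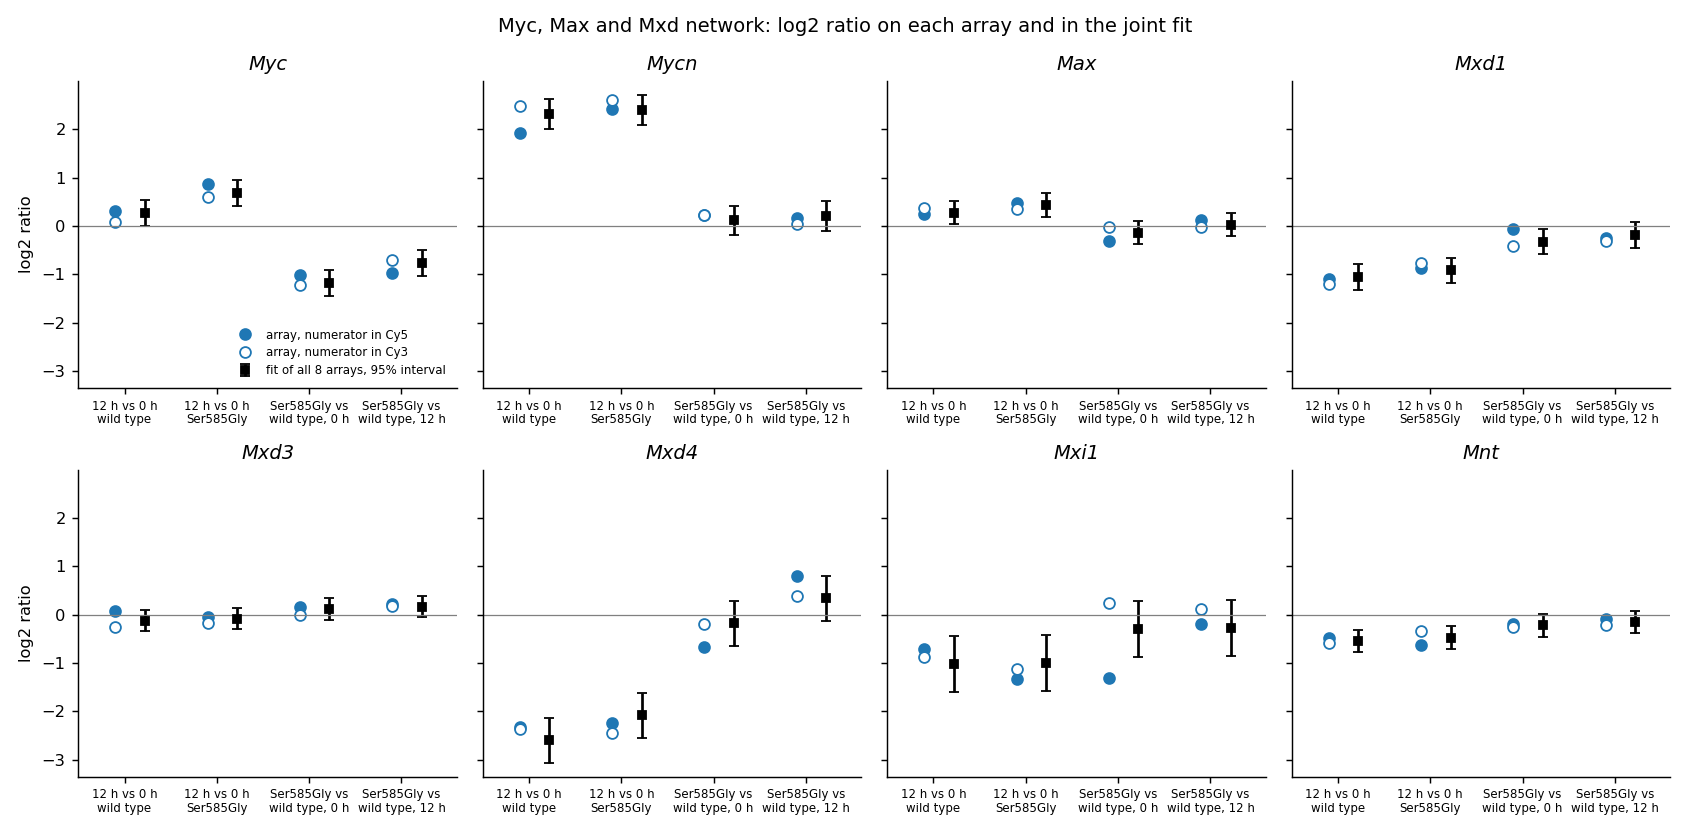
Log2 ratio (vertical axis) of the 8 genes in the 4 comparisons (horizontal axis). Circles are single arrays, filled where the numerator RNA was in Cy5 and open where it was in Cy3, and squares are the joint fit of 8 arrays with its 95% interval. Mycn lies near 2.3 and Mxd4 between −2.1 and −2.6 in both time comparisons, whereas Myc lies below 0 on all 4 arrays of Ser585Gly against wild type.

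Mycn was the activator that changed most over time. Its log2 ratio of 12 h to 0 h was 1.92 and 2.49 on the wild-type arrays and 2.41 and 2.60 on the Ser585Gly arrays. All 4 arrays were thus far above 0, and the populations overlapped. The fitted ratios were 2.31 ± 0.13 in wild type (adjusted p = 1.20e-04, limma) and 2.40 ± 0.13 in Ser585Gly (adjusted p = 1.48e-04, limma). The difference between the populations was 0.09, with a 95% interval of −0.27 to 0.44. Between Ser585Gly and wild type, Mycn stood at 0.23 and 0.22 on the arrays of 0 h and at 0.16 and 0.03 on those of 12 h. All of these were slightly positive, but the fitted ratios of 0.11 (interval −0.20 to 0.42) and 0.20 (−0.11 to 0.51) did not pass the test.

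Myc itself behaved differently, with its clearest difference between the populations. Its log2 ratio of Ser585Gly to wild type was −1.01 and −1.22 at 0 h and −0.98 and −0.70 at 12 h, so that it was lower in Ser585Gly on all 4 arrays. The fit gave −1.18 ± 0.12 at 0 h, or 2.26-fold lower (adjusted p = 0.00223, limma). At 12 h it gave −0.77 ± 0.12, or 1.71-fold lower (adjusted p = 0.0176, limma). Myc was the only member of 8 to pass in either comparison, where 4.07% of all probes passed at 0 h (2.07% higher and 2% lower) and 1.72% at 12 h (0.918% higher and 0.799% lower). The call at 12 h was lost without the 12 h array with Ser585Gly in Cy5 (adjusted p = 0.160), without its dye swap (0.113), without the wild-type time array with 12 h in Cy5 (0.0505) and with dye-swapped pairs averaged (0.0681). Of the cell type markers, 1 of 13 for T cells, Ptprc (CD45), and 1 of 6 myeloid ones, Ctsg (cathepsin G), were also lower in Ser585Gly, by ratios of −1.59 and −2.07 at 0 h and −1.73 and −2.34 at 12 h. Their part in the Myc difference was not tested.

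Over time, Myc stood at 0.32 and 0.08 on the wild-type arrays and at 0.87 and 0.61 on the Ser585Gly arrays. The lower Ser585Gly array was above the higher wild-type array. With 2 arrays per population such separation alone says little, and its share over all probes was not counted. The fitted change was 0.27 ± 0.12 in wild type, which did not pass (adjusted p = 0.215, limma), and 0.67 ± 0.12 in Ser585Gly, a 1.59-fold rise (adjusted p = 0.00972, limma). The latter call was lost without either Ser585Gly time array (adjusted p = 0.159 and 0.0668). The difference between these changes was 0.41 ± 0.14, with an interval of 0.09 to 0.72 and an unadjusted p of 0.0170, but it failed the adjustment (adjusted p = 0.627, limma). In this test of unequal change, 0 of 8 members passed, 1 of 8 (Myc) had an unadjusted p under 0.05, and 0.0551% of all probes passed (0.0276% in each direction).

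In order of fitted level, Myc was highest in wild type at 12 h, followed by wild type at 0 h, Ser585Gly at 12 h (−0.51 against wild type at 0 h) and Ser585Gly at 0 h (−1.18). Neighbours at the top of this order did not pass (adjusted p = 0.215), nor did wild type at 0 h against Ser585Gly at 12 h (adjusted p = 0.0562), whereas the lowest pair did, as given above. For Mycn, the 12 h states lay at 2.31 in wild type and 2.51 in Ser585Gly relative to wild type at 0 h, and those at 0 h lay at 0 and 0.11. The step between the times was the only one in the Mycn order that passed.

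**Figure D2:**
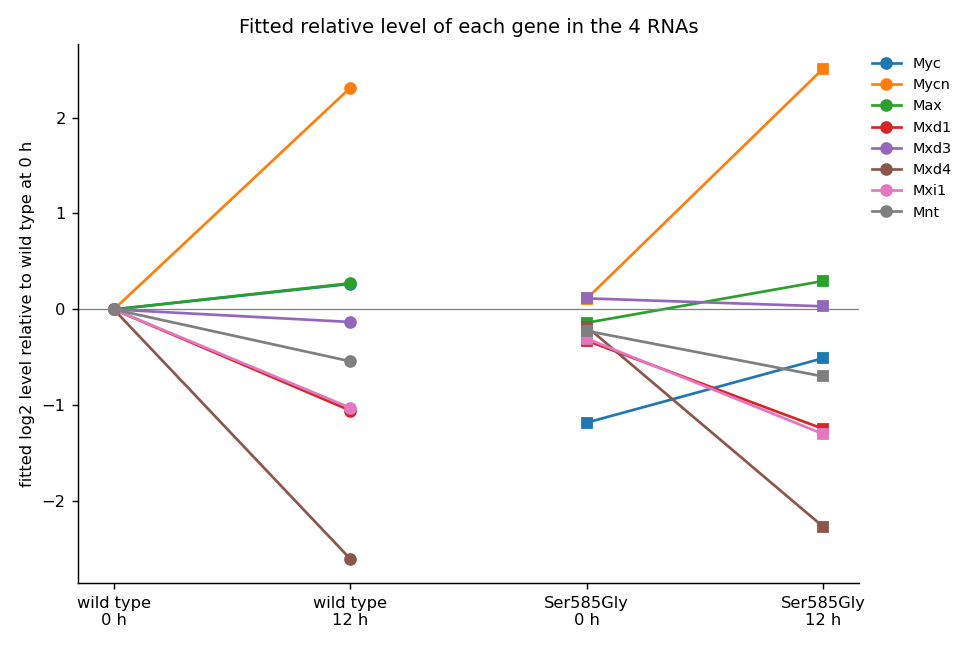
Fitted log2 level of each gene in the 4 RNAs (horizontal axis), set to 0 in wild type at 0 h (vertical axis); circles are wild type, squares Ser585Gly, and lines join the times of 1 population. Myc starts at −1.18 in Ser585Gly and ends at −0.51, whereas Mycn ends at 2.31 and 2.51 and Mxd4 at −2.60 and −2.27.

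Max, the common partner of activators and antagonists, moved little. Its log2 ratio over time was 0.24 and 0.37 in wild type and 0.47 and 0.34 in Ser585Gly, above 0 on each array and overlapping between populations. The fit gave 0.27 ± 0.11 in wild type (adjusted p = 0.158, limma) and 0.44 ± 0.11 in Ser585Gly (adjusted p = 0.0355, limma), so that only the second passed. That call was lost without any single array other than the 0 h array with Ser585Gly in Cy5, with adjusted p up to 0.292, and the wild-type change passed without that same array. The Ser585Gly call was also lost with dye-swapped pairs averaged (0.0878) and with the direct arrays alone (0.138). The wild-type change passed with print-tip loess (0.0280), in the deposited value table (0.0200) and with the comparison as a random block (0.0487). Wherever the deposited value table is used here, its rows were also renamed by the recovered order. The ratios of Ser585Gly to wild type were −0.32 and −0.01 at 0 h and 0.12 and −0.02 at 12 h. The fitted values, −0.14 (interval −0.38 to 0.10) and 0.02 (−0.22 to 0.27), did not pass.

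Mxd4, a Max-binding repressor, fell most among the antagonists. Its log2 ratio of 12 h to 0 h was −2.32 and −2.37 in wild type and −2.23 and −2.45 in Ser585Gly, so all 4 arrays lay within a narrow band. The joint fit, which also draws on the other edges of the square, gave −2.60 ± 0.20 in wild type (adjusted p = 3.37e-04, limma). In Ser585Gly it gave −2.08 ± 0.20, or 4.24-fold lower (adjusted p = 8.89e-04, limma). Between the populations, Mxd4 stood at −0.67 and −0.20 at 0 h and at 0.80 and 0.38 at 12 h. These opposite signs went into a fitted difference of change of 0.51 (interval −0.02 to 1.05), which did not pass (adjusted p = 0.727, limma). Neither did the ratios at single times, −0.18 (−0.64 to 0.28) and 0.33 (−0.13 to 0.80).

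Mxd1, a Max dimerisation protein, stood at −1.09 and −1.20 over time in wild type and at −0.88 and −0.77 in Ser585Gly. All 4 arrays were below 0. The populations did not overlap, which with 2 arrays each says little. The fitted falls were −1.05 ± 0.11 (2.08-fold lower, adjusted p = 0.00139, limma) and −0.92 ± 0.11 (1.89-fold lower, adjusted p = 0.00254, limma), and their difference of 0.13 (interval −0.17 to 0.44) did not pass. The fall in Ser585Gly missed the threshold without the Ser585Gly time array with 12 h in Cy5 (adjusted p = 0.0564). Against wild type, Mxd1 in Ser585Gly stood at −0.06 and −0.41 at 0 h and −0.26 and −0.31 at 12 h. The fitted −0.33 (−0.59 to −0.06) at 0 h did not pass (adjusted p = 0.148, limma), but it did with print-tip loess (0.0239) and in the deposited value table (0.0170).

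Mxi1, also a Sin3-recruiting partner of Max, stood at −0.71 and −0.87 in wild type and at −1.33 and −1.13 in Ser585Gly over time. The Ser585Gly arrays were lower and did not overlap the wild-type arrays, yet the fitted values, into which the mutation arrays also enter, lay close together. These were −1.02 ± 0.25 (adjusted p = 0.0402, limma) and −0.995 ± 0.25 (adjusted p = 0.0426, limma), with a difference of 0.03 (interval −0.64 to 0.70). Its dye-swapped pair at 0 h was far apart, with ratios of Ser585Gly to wild type of −1.31 and 0.23, while the pair at 12 h gave −0.20 and 0.12. Each call of Mxi1 was lost in 6 of 8 fits that left out 1 array, with adjusted p up to 0.257 in wild type and 0.288 in Ser585Gly. Both were also lost with no dye term (0.0574 and 0.0597), and the wild-type call with the direct arrays alone (0.142).

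Mnt, the antagonist that is broadly expressed in proliferating and resting cells, stood at −0.49 and −0.58 over time in wild type and at −0.62 and −0.34 in Ser585Gly. It was lower at 12 h on all 4 arrays, and the populations overlapped. The fit gave −0.54 ± 0.10 (adjusted p = 0.0140, limma) and −0.47 ± 0.10 (adjusted p = 0.0212, limma). The wild-type call was lost without either wild-type time array (adjusted p = 0.0871 and 0.153), and the Ser585Gly call in 4 of 8 such fits (up to 0.271) and with median centring (0.100). Both were also lost with dye-swapped pairs averaged (0.0536 and 0.0680) and with the direct arrays alone (0.0656 and 0.0802). Ratios of Ser585Gly to wild type were −0.20, −0.26, −0.09 and −0.22 on the 4 arrays. All were slightly negative, and the fitted −0.22 and −0.16 did not pass.

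Mxd3, the Mxd gene known for expression in S phase, was the member with the smallest values over time. It stood at 0.07 and −0.26 in wild type and −0.06 and −0.18 in Ser585Gly, on both sides of 0. The fitted changes were −0.13 (interval −0.35 to 0.09) and −0.08 (−0.30 to 0.14). Ratios of Ser585Gly to wild type were 0.17, −0.01, 0.21 and 0.18, with fitted values of 0.12 and 0.16. No comparison of Mxd3 passed the test.

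**Figure D3:**
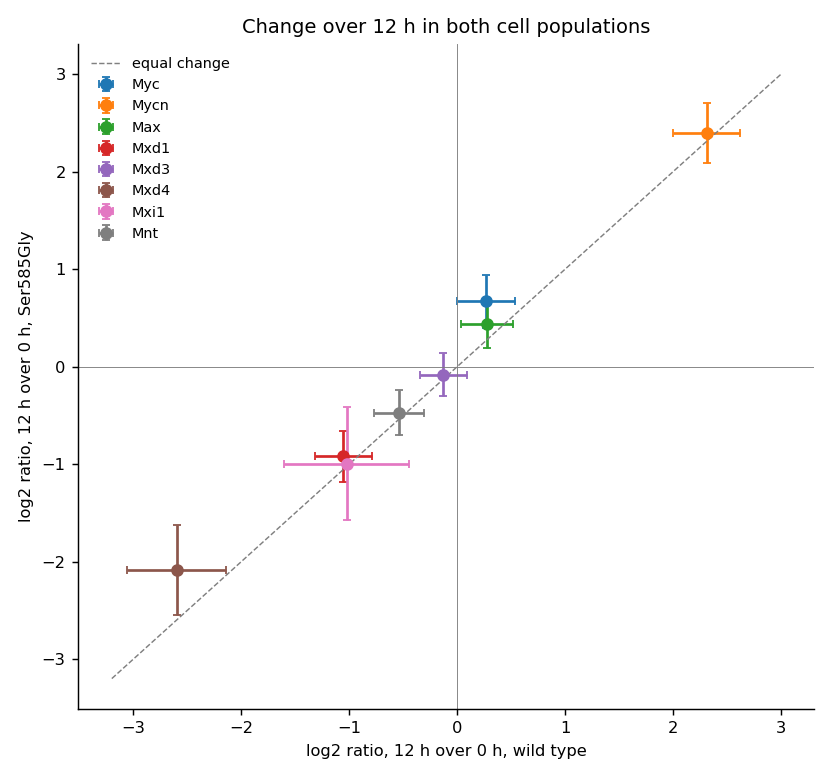
Log2 ratio of 12 h to 0 h in wild type (horizontal axis) and in Ser585Gly (vertical axis) for the 8 genes, with 95% intervals from the fit of 8 arrays; the dashed line marks equal change. Both axes share arrays through the joint fit. Mycn lies at the upper right (2.31 and 2.40), Mxd4 at the lower left (−2.60 and −2.08), and Myc above the line (0.27 and 0.67).

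Other genes of the network machinery were read against the shares of all probes given above. These were 9.46% and 10.5% over time, and 4.07% and 1.72% for the mutation at 0 h and 12 h. The share of all probes at an unadjusted p under 0.05 was not counted. Of 4 further partners with a probe (Mycl, Mga, Mlx and Mlxipl, of 5 listed), 0 passed in any comparison by limma, and at an unadjusted p under 0.05 there was 1 over time in wild type and 1 for the mutation at 12 h. Of 15 cofactors and co-repressors with a probe (19 listed), 1 rose over time in wild type, where the median over the list was −0.01 and that over all probes −0.01. This was Ruvbl2 (0.53), an ATPase of chromatin remodelling complexes. In Ser585Gly, Ruvbl2 (0.49) and its partner Ruvbl1 (0.48) rose, and Ep400 (−0.45), the chromatin remodeller that carries both, and Bin1 (−0.64), a Myc-binding adaptor, fell. The list median there was 0.02 against 0.01 over all probes. Ruvbl1 was also lower in Ser585Gly at 0 h (−0.67), as the only gene of the list. At 12 h, 0 passed and 5 had an unadjusted p under 0.05.

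Regulators of Myc protein were represented by 9 of 14 listed genes. Usp36, a nucleolar deubiquitinase that stabilises Myc, rose by 0.97 in wild type and 0.98 in Ser585Gly. Skp2, an F-box protein that ubiquitinates Myc and p27, rose by 0.49 and 0.97. Gsk3b, the kinase that marks Myc for degradation, fell, with ratios of −0.38 and −0.43. The list median was 0.15 and 0.12 over time, against −0.01 and 0.01 over all probes, and 0 of 9 passed for the mutation at either time (2 and 1 at an unadjusted p under 0.05).

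Most genes known to be induced by Myc had positive ratios over the 12 h, 38 of 50 in wild type and 43 of 50 in Ser585Gly. Of the 50 with a probe (58 listed), 26 rose and 1 fell in wild type, with a list median of 0.47 against −0.01 over all probes. In Ser585Gly, 29 rose and 1 fell, with a median of 0.66 against 0.01. Slc7a5, a transporter of large neutral amino acids, rose by 1.98 in wild type and 1.99 in Ser585Gly. Odc1, the first enzyme of polyamine synthesis, rose by 1.91 and 2.08. Prmt5, an arginine methyltransferase, rose by 1.01 in wild type, and Nop56, a nucleolar protein of box C/D particles, by 0.89. Shmt2, the mitochondrial serine hydroxymethyltransferase, rose by 0.88 there. In Ser585Gly, Polr1b, a subunit of RNA polymerase I, rose by 1.58, Phb, a mitochondrial scaffold protein, by 1.37, and Nop56 by 1.35. The gene that fell in both was Ldha, lactate dehydrogenase A (−0.38 and −0.65), named here after its values were seen. The wild-type count was 6 or 7 without either wild-type time array and 14 from the direct arrays alone, and the Ser585Gly count was 12 without the Ser585Gly time array with 12 h in Cy5.

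At 0 h, 12 of these 50 genes were lower in Ser585Gly than in wild type and 2 were higher. Of all probes, 2% were lower and 2.07% higher. The list median was −0.24 against −0.00 over all probes. Those lower included Tfap4, a transcription factor (−0.87), Polr1b (−0.87), Ncl, the nucleolar protein nucleolin (−0.87), Hspd1, the mitochondrial chaperonin (−0.66), and Cad, which starts pyrimidine synthesis (−0.64). The higher ones were Ldha (0.47) and Tfrc, the transferrin receptor (0.46). Tfrc was higher at 12 h too (0.76), as the only gene of the list to pass then, when the median was −0.07 and 10 had an unadjusted p under 0.05. The count of 12 lower genes depended on single arrays. It was 0 without the 0 h array with Ser585Gly in Cy3, 4 without its dye swap, 1 to 5 without any one of the other arrays except the Ser585Gly time array with 12 h in Cy3 (9), and 1 from the direct arrays alone. The 2 higher genes became 0 without any one array, and the call of Tfrc at 12 h was lost without either 12 h mutation array. In the test of unequal change over time, 0 of 50 passed, 15 had an unadjusted p under 0.05, and 40 of 50 values were positive. The list median was 0.18 against 0.01 over all probes, whose share at that unadjusted p was not counted. In the fit, this difference equals the ratio of Ser585Gly to wild type at 12 h less that at 0 h. The positive values are therefore not separate from the lower values at 0 h.

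Genes known to be repressed by Myc (22 of 22 with a probe) did not move one way. In wild type over time, Cdkn1b, the cell cycle inhibitor p27 (−1.29), and Klf6, a zinc finger factor (−1.04), fell, while Fth1, ferritin heavy chain (0.63), and Ddit3, a stress-response factor (0.43), rose. In Ser585Gly, 5 fell, namely Cdkn1b (−1.60), Ccng2, a cyclin of resting cells (−1.44), Klf6 (−1.20), Gadd45a, a DNA damage response gene (−0.70), and Ddit3 (−0.36), and Irf8, an interferon regulatory factor, rose (1.04). List medians were −0.06 and −0.04 over time, against −0.01 and 0.01 over all probes. At 0 h, 4 were higher in Ser585Gly, which were Ccng2 (1.03), Ddit3 (0.67), Klf6 (0.48) and Cdkn1b (0.46), and Irf8 was lower (−2.28). Of all probes, 2.07% were higher and 2% lower at 0 h. At 12 h only Irf8 passed (−1.47), where 0.799% of all probes were lower. The list medians were 0.22 at 0 h and 0.14 at 12 h, against −0.00 and −0.01. The 4 higher genes at 0 h became 0 without the 0 h array with Ser585Gly in Cy3 and 1 or 2 without any one of the others except its dye swap (3). With 5 lower genes in Ser585Gly over time, 2 and 3 were left without one or the other Ser585Gly time array, and the 2 higher in wild type became 0 without either wild-type time array, the 12 h array with Ser585Gly in Cy3 or the Ser585Gly time array with 12 h in Cy5.

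**Figure D4:**
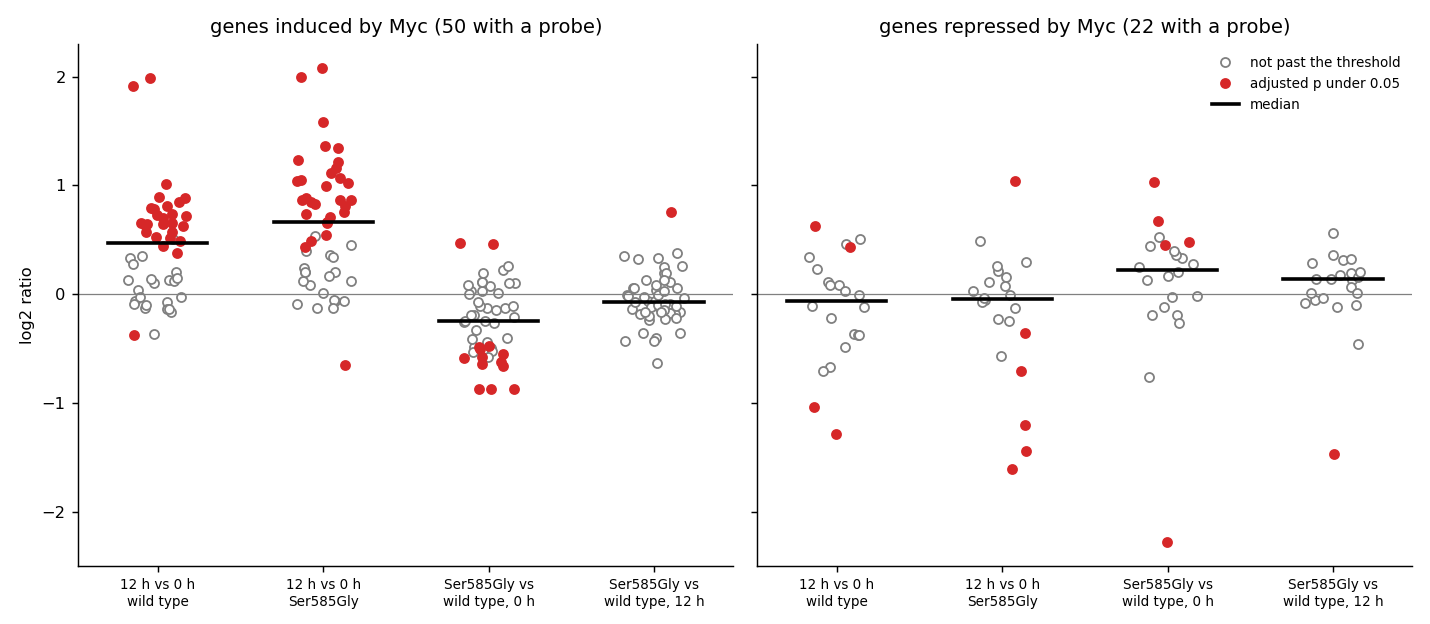
Log2 ratio (vertical axis) of each gene with a probe on the lists of genes induced (50, left) and repressed (22, right) by Myc, in the 4 comparisons (horizontal axis). Red points passed an adjusted p under 0.05, open points did not, and bars are medians. Medians of the induced list are 0.47 and 0.66 over time and −0.24 and −0.07 for the mutation.

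CACGTG lay in the window of 16 of the 50 induced genes that had a promoter window, against 8.11% of all genes. Among 14 of them with a probe, 5 rose and 1 fell over time in wild type (median 0.21), and among 28 without the motif 18 rose (median 0.55). In Ser585Gly the counts were 7 of 14 (median 0.47) and 19 of 28 (median 0.82), and 1 of the 14 fell. At 0 h, 3 of 14 and 8 of 28 were lower in Ser585Gly. The share that rose was not higher among genes with the motif in this window, a difference that was not tested. Sites outside the window, which ends 50 bases after the start, were not searched.

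Likeness to a member was measured as the Euclidean distance between the log2 ratios on the 8 arrays, over 11832 genes above the limit of empty wells on all arrays. The fitted values below come from these same ratios, so their nearness to those of the member follows from the choice. Nearest to Myc were Zfp979 (distance 0.678), Gna15 (0.680), Surf2 (0.755), Zmynd19 (0.830) and 2700038G22Rik (0.848), whose fitted ratios of Ser585Gly to wild type at 0 h ran from −1.30 to −0.76. Nearest to Mycn were Ptprg (0.706), Odc1 (1.16), Tnfrsf11b (1.22), Slc7a5 (1.23) and Pim2 (1.32). Their fitted rises over time in wild type ran from 1.91 to 2.72, on both sides of the 2.31 of Mycn. Nearest to Mxd4 were Bnip3 (0.830), Trp53inp1 (1.04), Ptprs (1.49), Irf7 (1.68) and Pik3ip1 (1.69), with fitted values over time in wild type from −2.75 to −2.20.

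Levels can also be given for each RNA as log2 intensity, in which each RNA has 4 channels on 4 arrays. These are not readings of 1 dye alone. Each joins the normalised ratio of the array to the mean brightness of both dyes. That mean was given the same distribution on every array (quantile normalisation). For Mycn the 4 channels ran from 10.18 to 10.77 in wild type at 0 h and from 12.09 to 14.09 at 12 h, and from 10.48 to 11.53 and 12.89 to 14.14 in Ser585Gly. The times did not overlap in either population. Mxd4 was at 11.08 ± 0.31 (SD, n = 4 channels) and 9.05 ± 0.64 in wild type. In Ser585Gly it was at 11.32 ± 0.58 and 9.80 ± 0.43, again with no overlap of the times. The share of all probes whose times separate in this way was not counted. Myc was at 12.73 ± 0.69 and 13.87 ± 0.49 in wild type and at 11.65 ± 0.87 and 13.19 ± 0.73 in Ser585Gly. For Myc, the step over time was larger on this scale than in the ratios within arrays.

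This was seen on the arrays that compare the populations at 1 time, with brightness quantile-normalised across arrays in the same way. The mean brightness of both dyes at the Myc spot was 11.6 and 11.6 on the 0 h arrays and 13.4 and 14.2 on the 12 h arrays, a gap of 2.21, whereas the mean fitted change over time was 0.47. Of 2178 probes of similar brightness, 98.6% had a smaller gap, and the SD of their gaps was 0.877. Max showed the same, with a gap of 1.91 beside a mean fitted change of 0.35. For Mycn the values were 2.99 and 2.35, and for Mxd4 −1.21 and −2.34. The falls of the other antagonists were small or not seen on this scale, with −0.19 beside −0.99 for Mxd1, −0.29 beside −1.01 for Mxi1 and 0.04 beside −0.51 for Mnt. Mxd3 had −0.04 beside −0.11. The cause of these gaps was not tested.

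**Figure D5:**
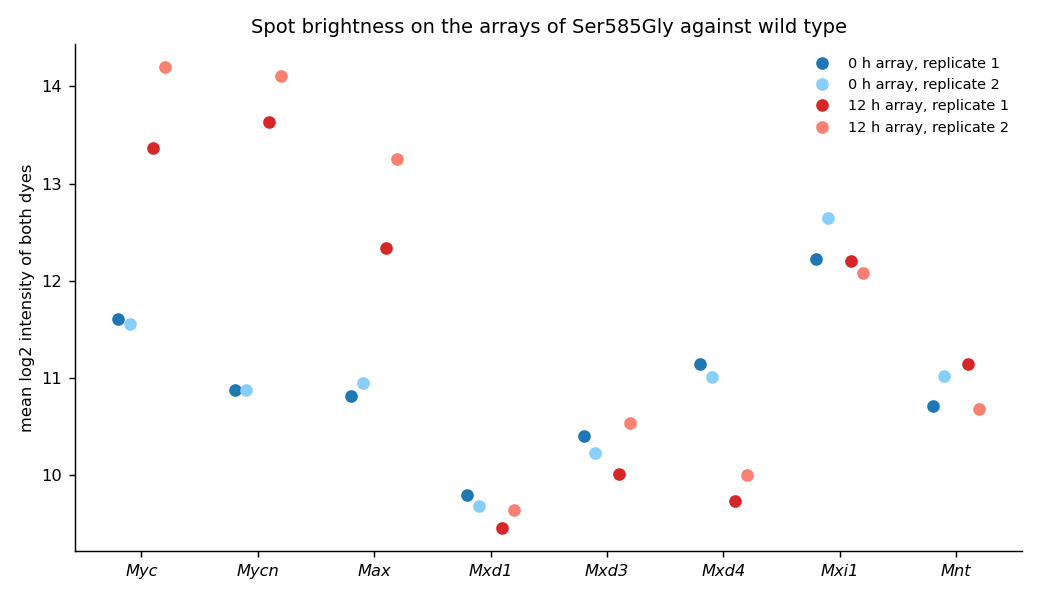
Mean log2 intensity of both dyes (vertical axis), quantile-normalised across arrays, at the spot of each gene (horizontal axis). The arrays are the 4 of Ser585Gly against wild type, blue for 0 h and red for 12 h, with 1 point per array. The Myc spot is at 11.6 on both 0 h arrays and at 13.4 and 14.2 on the 12 h arrays.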

How the data were processed

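Per the file headers, the scanner files give intensity for both dyes at each spot, with local background beside it. How the images were read was not given in the sources used here, and the authors' value table is in log2 of Cy5 over Cy3. The submitters' processing notes name limma. Probe names were moved to spots by a recovered print order, which placed 21776 probes. Before this move, each row of the authors' value table was matched to the spot with the nearest values. That spot was the one of the deposited order for 90.2% of these probes and for all 8 members. This match located the rows and did not check the recovered order.

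Background was corrected by normexp (offset 50), and each array was normalised by loess (span 0.3, no weight on control spots). Mean brightness of both dyes was also quantile-normalised across arrays, but only for the levels of each RNA and the brightness gaps. The 8 arrays were fitted in limma 3.58.1 (R 4.3.3) with dye, mutation, time and their interaction, two-sided, with 4 residual and 4.35 prior degrees of freedom, and the code was tested on simulated data. The text names all members, up to 5 genes by size per list and comparison among those that passed, and the 5 genes nearest to Myc, Mycn and Mxd4. Counts of 5 or fewer were named beyond that. The members and lists were chosen with earlier results of these data known. Alternatives covered background, normalisation, the deposited values, the treatment of dye swaps, the dye term, the prior, dim spots and each array left out. The deposited values were taken with names in the recovered order. The number of arrays limits the precision.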

Additional observations from a re-analysis of the deposited data

How the results depend on the processing

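The deposited value table held no value for the spot to which the recovered order moves the name Mycn. Mycn and Mxd4 over time in both populations kept direction and call across 11 alternatives of processing (10 for Mycn). So did Mxd1 over time and Myc at 0 h. Of these, Mxd1 in Ser585Gly alone lost its call when an array was left out. Members that passed over time in wild type (5) ranged from 3 with the direct arrays alone to 6 with print-tip loess or the random block. With 1 array left out they were 3 to 6. In Ser585Gly (7) they ranged from 5 to 7 across the processing alternatives. With 1 array left out they were 2 to 7, the lowest without the Ser585Gly time array with 12 h in Cy5. For the mutation at 0 h (1) they were 2 with print-tip loess and 2 with the deposited value table, which added Mxd1. With 1 array left out they stayed at 1. At 12 h (1) they were 2 with the deposited value table, which added Mxd4 (0.46), 0 with pairs averaged, and 0 to 1 with 1 array left out.

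If spots are named in the deposited order, other spots carry the members' names. Then 1, 1, 1 and 0 members passed in the 4 comparisons, Mycn stood at −0.18 and −0.15 over time in the 2 populations, and Mxd1 at 0.24 in Ser585Gly.

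Probes passing over time ranged from 885 (direct arrays alone) to 4183 (edge as a random block) around 2061 in wild type, and from 1147 to 4306 around 2277 in Ser585Gly. For the mutation they ranged from 227 to 3383 around 886 at 0 h and from 156 (pairs averaged) to 2207 (deposited value table) around 374 at 12 h, and for unequal change from 0 to 90 around 12. With 1 array left out, the ranges were 411 to 3302, 269 to 3429, 110 to 637, 68 to 627 and 0 to 5. Median centring moved the share of higher calls from 54.9% to 65.0% over time in Ser585Gly, and median centring of the 0 h mutation comparison left 224 higher and 322 lower in place of 450 and 436. The alternatives for the gene lists were chosen after the data were seen. No second probe of a member could be tried, since each has 1. The titles pair the arrays of each comparison as dye swaps, and these pairs were averaged or taken as a random block above. No paired analysis was possible across the comparisons because replicate numbers there follow the order of accessions and link no samples.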
